A study of Mus musculus with 54 samples.

Results

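Within the oligodendrocyte lineage, 10 genes, Gpr17, Pdgfra, Cspg4, Olig1, Bmp4, Enpp6, Neu4, Tns3, Itpr2 and Bcas1, were followed through 3 brain regions, cerebellum, cortex and striatum, in Mbd5+/GT mice and their wild-type (WT) littermates. These 10 genes, out of 47069 in the count table, were selected on the lower level of Gpr17 measured in Mbd5+/GT mice, and the question was whether the other 9, which mark the same or neighbouring stages of the lineage, read lower with it in each region. The genotype values of Gpr17 are therefore a description, and only the other 9 genes were tested between genotypes. All 10 passed the filter on low counts in every region.

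The animals were on a C57BL/6 background, were 8 weeks old, and comprised 10 Mbd5+/GT mice (5 females and 5 males) and 8 WT littermates (5 females and 3 males). The Mbd5+/GT mice carry 1 hypomorphic copy of Mbd5, made by a gene trap inserted between exons in embryonic stem cells, so the allele is present in every cell type and not only in oligodendrocytes. Each mouse gave 1 polyA RNA-seq library per region, 54 in all, so the genotype comparisons in the 3 regions come from the same animals. There were 3 mice of each genotype in litter 1, 4 Mbd5+/GT mice with a single WT littermate in litter 2, and 3 with 4 WT littermates in litter 3. Litter 1 was all female and litter 2 all male, and only litter 3 held both sexes. Litter and sex therefore cannot be told apart between litters 1 and 2. Levels are given as CPM, a gene's share of all counts in its library scaled to a common total, after TMM normalization.

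Oligodendrocyte precursor cells persist in the adult brain, divide slowly and give rise to the cells that wrap axons in myelin. Precursors carry the PDGF receptor Pdgfra and the proteoglycan NG2 (Cspg4) and depend on PDGF for their expansion. Cells that leave this state switch on the G protein-coupled receptor Gpr17, which is known to hold them at an intermediate stage before myelination, and pass through a short newly formed stage marked by genes such as Enpp6 before the abundant myelin genes dominate. Mbd5, the trapped gene, belongs to the methyl-CpG-binding domain family, but the study states that MBD5 cannot bind methylated DNA in vitro.

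Promoter windows were found in RefSeq (GRCm38.p6) for 7 of the 10 genes, all but Gpr17, Bcas1 and Olig1. The bases directly upstream of the gene start are shown for Neu4 and Bmp4, which had the smallest genotype p-values among the genes with an entry, and for Tns3, the one gene that was lower in both cortex and striatum than in cerebellum. CG dinucleotides are in capitals because Mbd5 is of the methyl-CpG-binding domain family. Since MBD5 did not bind methylated DNA in vitro, the capitals mark letters only and not sites of Mbd5. The 3 stretches lie at chr1:94020251-94020450 on the plus strand (Neu4), chr14:46390670-46390869 on the minus strand (Bmp4) and chr11:8664536-8664735 on the minus strand (Tns3), and are written 5′ to 3′.
Neu4: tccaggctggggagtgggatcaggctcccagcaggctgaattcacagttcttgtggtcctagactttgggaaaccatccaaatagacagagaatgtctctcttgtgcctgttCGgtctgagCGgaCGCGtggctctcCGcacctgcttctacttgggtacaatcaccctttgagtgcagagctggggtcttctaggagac
Bmp4: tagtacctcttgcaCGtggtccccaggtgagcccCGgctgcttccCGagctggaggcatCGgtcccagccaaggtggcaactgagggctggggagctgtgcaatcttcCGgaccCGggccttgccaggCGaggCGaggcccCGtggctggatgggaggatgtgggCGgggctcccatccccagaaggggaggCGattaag
Tns3: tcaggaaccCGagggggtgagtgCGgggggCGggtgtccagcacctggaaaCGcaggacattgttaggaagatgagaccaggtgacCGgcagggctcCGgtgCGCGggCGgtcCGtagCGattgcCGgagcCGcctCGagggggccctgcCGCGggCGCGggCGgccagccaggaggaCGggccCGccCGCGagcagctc
The 200 bases of Neu4 held 5 CG dinucleotides, those of Bmp4 11 and those of Tns3 23. Over the full RefSeq windows, which run past the gene start, the counts were 6, 12 and 33, against a median of 7 (quartiles 3 and 20) in all 32851 windows. The letters AACAAT, a core that SOX factors can bind, were found on either strand in the windows of Enpp6 (220 bases before the start) and Tns3 (141 bases before), and in 10.7% of all windows. The E-box CAGCTG was in none of the 7 windows and in 16.3% of all windows. A match describes letters only, and no binding was measured.

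The genes lie on different chromosomes of GRCm38. Gpr17 (ENSMUSG00000052229) spans chr18:31942997-31949636 on the minus strand in 2 exon blocks. Of the precursor genes, Pdgfra (ENSMUSG00000029231) spans chr5:75152292-75198215 on the plus strand and Cspg4 (ENSMUSG00000032911) chr9:56865033-56899870 on the plus strand. Olig1 (ENSMUSG00000046160), a transcription factor gene of the whole lineage, lies at chr16:91269772-91271933. The genes of committed and newly formed cells are Bmp4 (ENSMUSG00000021835, chr14:46383520-46390669), Enpp6 (ENSMUSG00000038173, chr8:46986887-47096762), Neu4 (ENSMUSG00000034000, chr1:94020451-94028334), Tns3 (ENSMUSG00000020422, chr11:8431652-8664535), Itpr2 (ENSMUSG00000030287, chr6:146108299-146502223) and Bcas1 (ENSMUSG00000013523, chr2:170346991-170427845). Exons of Gpr17 share 188 bases with Lims2 on the other strand. Pdgfra, Bmp4, Bcas1 and Olig1 also overlap exons of other annotated transcripts, and without knowing the strand setting of the counting such reads cannot be assigned with certainty.

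The median of Mbd5 itself was lower in Mbd5+/GT mice in each region, with overlap between single libraries. Its level ran from 40.6 to 53.0 CPM (median 45.8) in Mbd5+/GT cortex and from 47.7 to 75.6 CPM (median 67.9) in WT cortex. The medians were 37.2 against 46.8 CPM in striatum and 40.3 against 54.6 CPM in cerebellum. Depth ran from 25295973 to 49027399 counts per library, and of the 10 genes Bmp4 had the fewest counts, so counting error weighs most on its values.

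Several libraries stood apart from the region on their label, and the counts they touch are also given without them. The rule that picked them out was set after the values had been seen, and it had no criterion for cortex. Cerebellar neuron markers (Gabra6, Pcp2, Zic1, Cbln1 and Neurod1) summed to 2164 to 3441 CPM in 16 of the 18 cerebellum libraries, to 1081 CPM in WT mouse M754 and to 100.8 CPM in Mbd5+/GT mouse M755. The 18 mature myelin genes summed to 20849 CPM and 34263 CPM in those libraries, against group medians of 7010 and 7691 CPM. In striatum, 5 libraries (WT mice M754 and M761, Mbd5+/GT mice M755, M756 and M763) had striatal neuron markers of 76.2 to 715.5 CPM, below the highest cortex library, where the other 13 reached up to 3669 CPM. The rule did not use cortical neuron markers. In those 13 they ran from 17.4 CPM (Mbd5+/GT mouse M764) to 1129 CPM (Mbd5+/GT mouse M753), against 611.5 to 1522 CPM in the cortex libraries. The 13 were therefore not even in the tissue they held, and the part of this in the striatal values was not tested. Both cerebellum libraries also held the highest levels of Gpr17, Pdgfra, Cspg4, Bmp4, Enpp6, Neu4, Itpr2, Bcas1 and Olig1 in their groups, but not of Tns3.

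The cortex libraries also differed in the tissue they held. Their striatal neuron markers ran from 66.6 to 756.5 CPM (median 508.5) in WT mice and from 104.98 to 513 CPM (median 221) in Mbd5+/GT mice, and all 5 of these markers had a negative genotype fold change in cortex (median −0.43), none with an unadjusted p under 0.05. The cortical neuron markers were lowest, at 611.5 CPM, in Mbd5+/GT mouse M758. The part of this difference in the cortical values of Gpr17, Neu4 and Olig1 was not tested.

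**Figure D1:**
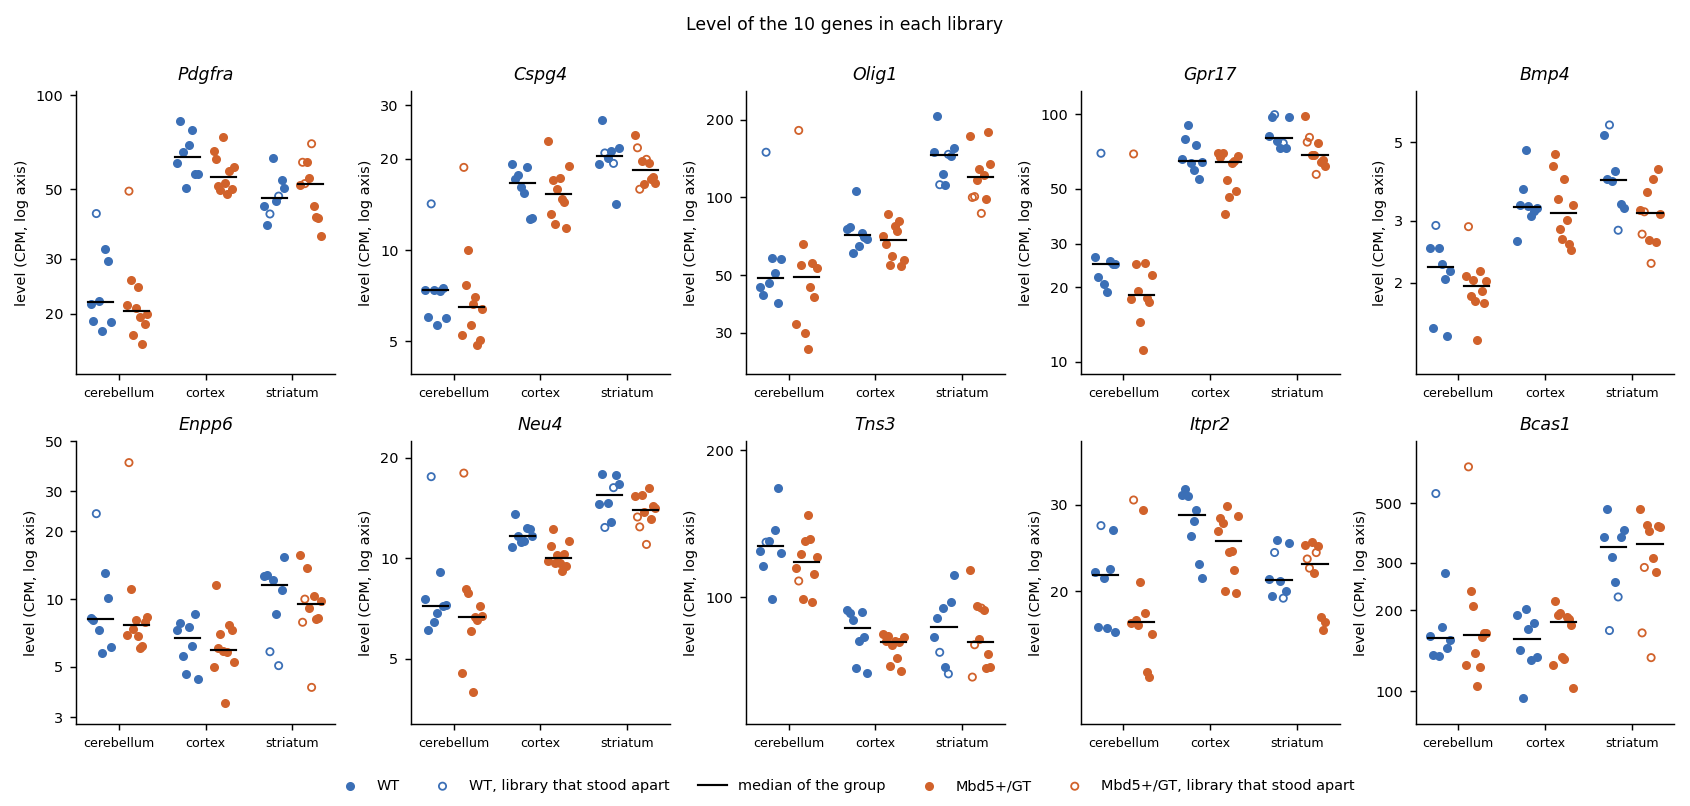
Level of each of the 10 genes (CPM, log axis) in each of the 54 libraries, by region and genotype, with the group median as a bar and the 7 libraries that stood apart as open circles. The 2 open circles in cerebellum lie far above the rest for most genes, with Gpr17 at 69.5 and 69.0 CPM against 11.1 to 26.4 CPM elsewhere in cerebellum.

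Gpr17 was lower on average in Mbd5+/GT mice in all 3 regions, the pattern on which the set was selected, and the genotypes overlapped in each. In cortex its level ran from 39.5 to 69.4 CPM (median 64.1) in Mbd5+/GT mice and from 54.7 to 90.0 CPM (median 64.9) in WT mice. In striatum it ran from 57.1 to 98.6 CPM (median 68.3) against 72.9 to 99.5 CPM (median 79.8). In cerebellum it ran from 11.1 to 69.0 CPM (median 18.7) against 19.1 to 69.5 CPM (median 24.8). Of the 10 Mbd5+/GT libraries per region, 6 striatal, 5 cerebellar and 4 cortical ones lay below the lowest WT library. The log2 fold change was −0.33 (SE 0.14) in cerebellum, −0.26 (SE 0.10) in cortex and −0.23 (SE 0.08) in striatum. Without the libraries that stood apart it was −0.17 (SE 0.07) in striatum and −0.32 (SE 0.15) in cerebellum.

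The difference in Gpr17 was not even across litters, which also differed in sex. In cerebellum the mean log2 level of Mbd5+/GT mice minus that of WT littermates was −0.65 in litter 1, −0.28 in litter 2 and 0.05 in litter 3. In cortex the values were −0.43, −0.07 and −0.11. In striatum they were −0.20, −0.55 and −0.06, and the litter with the largest difference there was litter 2, which had a single WT mouse. Without litter 2 the striatal log2 fold change was −0.07 (SE 0.09).

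**Figure D2:**
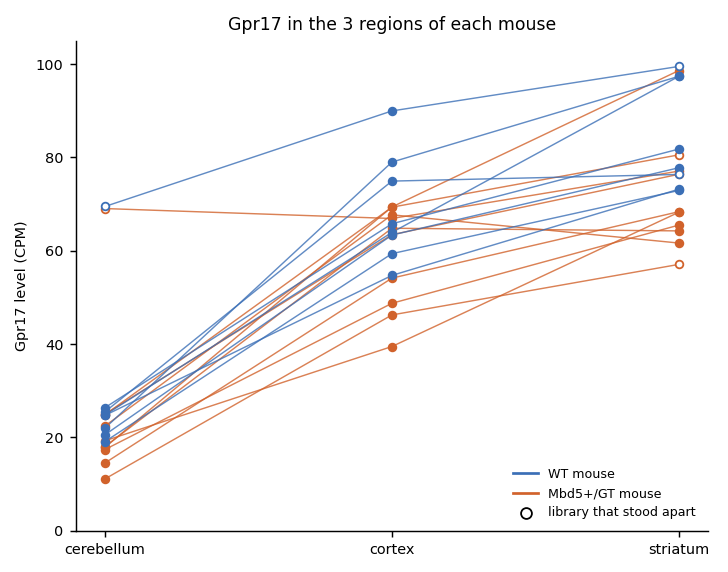
Level of Gpr17 (CPM) in the cerebellum, cortex and striatum of each mouse, with 1 line per mouse coloured by genotype and the libraries that stood apart as open circles. All but 2 lines start between 11.1 and 26.4 CPM in cerebellum and rise to cortex, and the genotypes overlap in each region.

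None of the other 9 genes passed an adjusted p under 0.05 between genotypes in any region, by the quasi-likelihood test of edgeR, adjusted over all genes tested by the Benjamini-Hochberg method, and DESeq2 called 0 as well. Over all genes the share called at that threshold was 0.00551% in cerebellum, 0.0107% in cortex and 0.00539% in striatum. At an unadjusted p under 0.05, 2 of the 9 were lower in cerebellum, 1 in striatum and 1 in cortex, and none was higher. The background of genes lower at that p was 1.78% in cerebellum, 3.20% in striatum and 4.51% in cortex, and that of genes higher was 0.964%, 4.24% and 3.96%. The sign of the fold change was negative for 8 of the 9 in cerebellum, 7 in cortex and 9 in striatum, where 52.7%, 52.1% and 53.4% of all genes had a negative sign. The median log2 fold change of the 9 was −0.09 in cerebellum, −0.08 in cortex and −0.10 in striatum, against −0.00, −0.00 and −0.01 over all genes. The striatal count includes Pdgfra at −0.02, whose median level was higher in Mbd5+/GT mice there. These genes vary together between libraries, and some of them vary with Gpr17. Their signs are therefore not independent of each other or of the Gpr17 difference on which the set was selected. The shares over all genes are no expectation for these counts. Without the libraries that stood apart, 0 of the 9 had an unadjusted p under 0.05 in cerebellum and in striatum, with 9 and 8 negative signs.

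**Figure D3:**
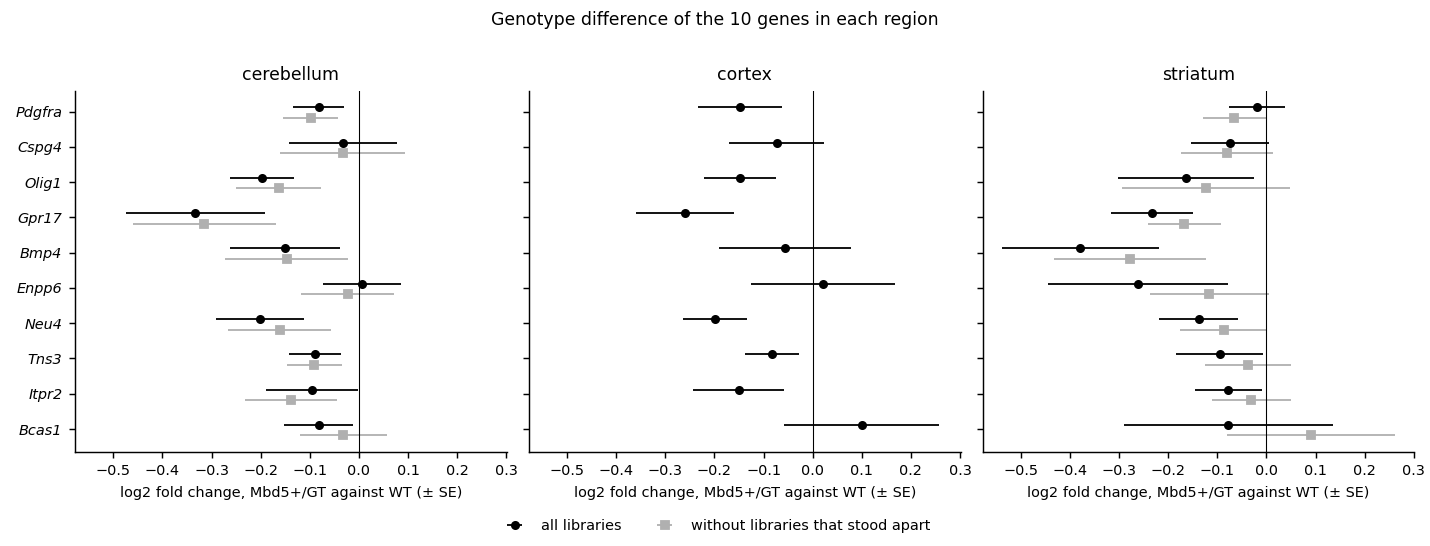
Log2 fold change of Mbd5+/GT against WT (± SE) for the 10 genes in each region, with all libraries and without those that stood apart; the rule had no criterion for cortex, so its libraries are all kept. Most points lie left of 0 by less than 0.3, and those of Enpp6 and Bcas1 change side between regions.

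Neither gene of the precursor state had an unadjusted p under 0.05 in any region. Pdgfra, the receptor through which PDGF acts on precursors, ran from 48.3 to 73.6 CPM (median 54.9) in Mbd5+/GT cortex and from 50.6 to 82.8 CPM (median 63.3) in WT cortex. Its log2 fold change was −0.15 in cortex (SE 0.09, adjusted p = 0.677), −0.08 in cerebellum (SE 0.05, adjusted p = 1.00) and −0.02 in striatum (SE 0.06, adjusted p = 0.976). In striatum its levels ran from 35.4 to 70.0 CPM (median 52.0) in Mbd5+/GT mice and from 38.3 to 62.8 CPM (median 46.8) in WT mice. The genotypes overlapped in all regions, and in striatum the sign depended on the covariates and on the animals. It was 0.07 (SE 0.12) without surrogate variables. Without litter 2 the striatal value was 0.21 (SE 0.09, unadjusted p = 0.0328). Cspg4, which encodes the NG2 proteoglycan and is also made by pericytes, had log2 fold changes of −0.07 (SE 0.10) in cortex, −0.07 (SE 0.08) in striatum and −0.03 (SE 0.11) in cerebellum, each less than its SE. Pericyte and smooth muscle markers, 10 genes, summed to a median of 283 CPM in Mbd5+/GT and 312 CPM in WT cortex, and their part in the Cspg4 values was not tested.

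Olig1, a transcription factor present from precursors to mature oligodendrocytes, ran from 86.7 to 178.7 CPM (median 120) in Mbd5+/GT striatum and from 111.7 to 207.2 CPM (median 146) in WT striatum. In cortex the ranges were 54.04 to 86.6 CPM (median 68.4) and 61.2 to 106.3 CPM (median 71.7), again with overlap. In cerebellum the medians were 49.2 CPM in Mbd5+/GT and 48.9 CPM in WT mice, so the order of the medians was opposite to the fitted change. The fitted log2 fold change in cerebellum was −0.20 (SE 0.07, unadjusted p = 0.00638, adjusted p = 1.00). It was −0.16 (SE 0.09, unadjusted p = 0.0778) without the 2 libraries that stood apart and −0.06 (SE 0.36) without surrogate variables. The values were −0.15 (SE 0.07, adjusted p = 0.608) in cortex and −0.16 (SE 0.14, adjusted p = 0.843) in striatum. Mbd5+/GT mice were lower within each of the 3 litters in cortex and in striatum.

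Neu4, a sialidase of differentiating oligodendrocytes, had a negative fold change in all 3 regions. In cortex it ran from 9.17 to 12.2 CPM (median 10.0) in Mbd5+/GT mice and from 10.8 to 13.6 CPM (median 11.7) in WT mice. The groups overlapped, with 7 of the 10 Mbd5+/GT libraries below the lowest WT library and 9 below the WT median. The log2 fold change in cortex was −0.20 (SE 0.07, unadjusted p = 0.00722, adjusted p = 0.412), and the difference was negative within each litter (−0.28, −0.22 and −0.11). Without litter 2 it was −0.18 (SE 0.08, unadjusted p = 0.0506). For the cortical log2 CPM without other terms, an exact two-sided permutation test (43758 splits of the mice) gave p = 0.00222. The test was run for all 9 genes in all 3 regions without adjustment, and its splits ignored litter and sex. This p was the smallest, and only that of Bmp4 in striatum was also under 0.05. In striatum the levels ran from 11 to 16.2 CPM (median 13.9) against 12.4 to 17.9 CPM (median 15.5), with a log2 fold change of −0.14 (SE 0.08, adjusted p = 0.728). In cerebellum the medians were 6.69 and 7.21 CPM and the log2 fold change was −0.20 (SE 0.09, unadjusted p = 0.0345, adjusted p = 1.00). Without the libraries that stood apart the cerebellar value was −0.16 (SE 0.10, unadjusted p = 0.141).

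Bmp4, a secreted BMP ligand expressed by committed precursors, had the lowest counts of the 10 genes. In striatum it ran from 2.27 to 4.196 CPM (median 3.15) in Mbd5+/GT mice and from 2.82 to 5.59 CPM (median 3.92) in WT mice. The groups overlapped, with 4 of the 10 Mbd5+/GT libraries below the lowest WT library. The log2 fold change in striatum was −0.38 (SE 0.16, unadjusted p = 0.0291, adjusted p = 0.635), the largest in size of the 9 genes in any region. The exact two-sided permutation test on striatal log2 CPM gave p = 0.0317, not adjusted for the 9 genes tested in each region. Leaving out the 5 striatum libraries that stood apart gave −0.28 (SE 0.15, unadjusted p = 0.0953), and leaving out the 2 libraries labelled as repeated gave −0.33 (SE 0.18, unadjusted p = 0.0793). The difference was −0.28 in litter 1, 0.07 in litter 2 and −0.59 in litter 3. In cortex and cerebellum the log2 fold changes were −0.06 (SE 0.13) and −0.15 (SE 0.11).

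The remaining genes of committed and newly formed cells had no unadjusted p under 0.05 in any region. Enpp6, a choline phosphodiesterase that peaks as new oligodendrocytes form, had log2 fold changes of 0.02 (SE 0.15) in cortex, −0.26 (SE 0.18) in striatum and 0.01 (SE 0.08) in cerebellum. Its striatal levels ran from 4.06 to 15.7 CPM (median 9.47) in Mbd5+/GT mice and from 5.07 to 15.4 CPM (median 11.5) in WT mice, which is nearly the same range. Tns3, a focal adhesion protein, had values of −0.08 (SE 0.06), −0.10 (SE 0.09) and −0.09 (SE 0.05) in the same order of regions. All 10 Mbd5+/GT cortex libraries lay below the WT median of Tns3, 86.5 CPM, but none below the lowest WT library. Itpr2, an intracellular calcium release channel, had values of −0.15 (SE 0.09), −0.08 (SE 0.07) and −0.10 (SE 0.09). Bcas1, a marker of newly formed and early myelinating cells that is also kept in myelin, had 0.10 (SE 0.16), −0.08 (SE 0.21) and −0.08 (SE 0.07). In these bulk samples, fewer cells of a type and less RNA per cell cannot be told apart.

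The mature myelin genes did not share one direction across regions. None of the 18 had an unadjusted p under 0.05 in any region, and 15 were negative in cerebellum, 2 in cortex and 17 in striatum. Their median log2 fold change was −0.03 in cerebellum, 0.08 in cortex and −0.11 in striatum. Without the libraries that stood apart, 7 of the 18 were negative in striatum and the median was 0.01. With the mean of these genes as a covariate, the log2 fold change of Gpr17 was −0.30 in cerebellum, −0.20 in striatum and −0.26 in cortex.

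**Figure D4:**
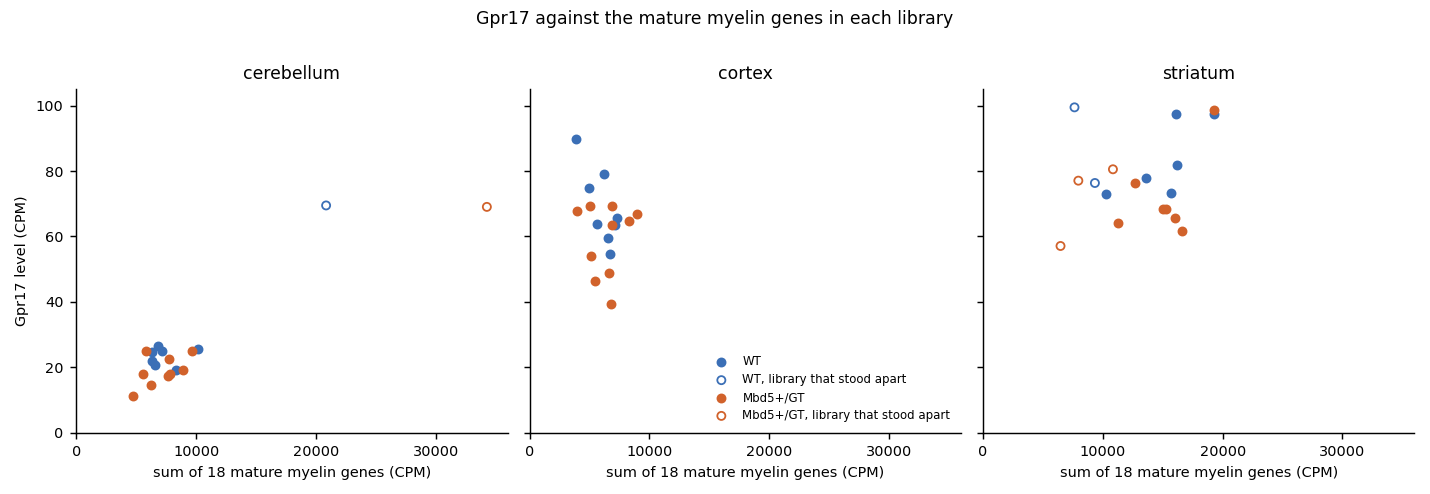
Level of Gpr17 (CPM) against the summed level of the 18 mature myelin genes (CPM) in each library of the 3 regions, by genotype, with the libraries that stood apart as open circles. In cerebellum the 2 open circles, at 20849 and 34263 CPM of myelin genes, lie far to the right of and above the other 16 libraries.

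Some other genes of the same stages had an unadjusted p under 0.05, and none passed the adjusted threshold in any region. Of all genes, 1.78% were lower at that p in cerebellum, 4.51% in cortex and 3.20% in striatum. The shares higher were 0.964%, 3.96% and 4.24% in the same order. These shares, from the fits with all libraries, also stand beside the counts of the lists that follow. Whether a list differed from them was not tested. Of 19 other precursor genes, 2 were lower at that p in cortex, 1 in cerebellum and 1 in striatum, where 1 was also higher. They were Cacng4, an AMPA receptor auxiliary subunit, lower in cerebellum (−0.22, SE 0.06) and cortex (−0.20, SE 0.08), Matn4, an extracellular matrix protein, lower in cortex (−0.21, SE 0.08), Rlbp1, a retinoid-binding protein, lower in striatum (−0.24, SE 0.11), and Ptprz1, a receptor phosphatase also abundant in astrocytes, higher in striatum (0.19, SE 0.09). The median of this list was −0.04 in cerebellum, −0.07 in cortex and 0.04 in striatum. With those that stood apart left out, 1 was lower at that p in cerebellum and none in either direction in striatum, where the median was −0.03.

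Of 16 other newly formed oligodendrocyte genes, 1 was lower at an unadjusted p under 0.05 in cerebellum, 3 in striatum and 1 in cortex, and none was higher. Those in striatum were Ust, a sulfotransferase of chondroitin and dermatan sulfate (−0.32, SE 0.08), Zfp488, a zinc finger factor of differentiating oligodendrocytes (−0.22, SE 0.10), and Lims2 (−0.19, SE 0.09), whose exons overlap Gpr17. Lims2 was also the one in cortex (−0.17, SE 0.06), and the zinc transporter Tmem163 the one in cerebellum (−0.10, SE 0.05). Medians were −0.09 in cerebellum, −0.03 in cortex and −0.11 in striatum. Leaving out the libraries that stood apart, 1 was lower in cerebellum and 1 in striatum, with medians of −0.04 and −0.07.

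The PDGF and BMP pathway was measured with 24 ligands, receptors, antagonists, Smad proteins and Id targets. At an unadjusted p under 0.05, 1 was lower in cerebellum, 2 lower and 2 higher in cortex, and 1 lower and 3 higher in striatum, and none passed the adjusted threshold. Id1, a transcriptional target of BMP signalling, was lower at that p in striatum (−0.26, SE 0.10) and in cerebellum (−0.16, SE 0.07). The other Id genes of the list, Id2, Id3 and Id4, had no such p in any region. The BMP receptors Bmpr2 (0.24, SE 0.08), Bmpr1b (0.14, SE 0.05) and Bmpr1a (0.14, SE 0.06) were higher at that p in striatum. In cortex the BMP antagonist Chrd was higher (0.22, SE 0.07) and Nog lower (−0.25, SE 0.10), and of the PDGF ligands Pdgfd was higher (0.22, SE 0.09) and Pdgfb lower (−0.15, SE 0.07), all at an unadjusted p under 0.05. Medians of the 24 were −0.03, −0.05 and −0.03 in cerebellum, cortex and striatum. When the libraries that stood apart were left out, none of the 24 had such a p in cerebellum, and 1 was lower and 1 higher in striatum.

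Of 8 cell cycle genes, which precursors use when they divide, Top2a (0.48, SE 0.13), Cdk1 (0.66, SE 0.21) and Mki67 (0.42, SE 0.14) were higher at an unadjusted p under 0.05 in cortex, with adjusted p from 0.315 to 0.430 by the quasi-likelihood test. Median levels of Mki67 were 2.94 CPM in Mbd5+/GT and 2.17 CPM in WT cortex. Ccna2 was higher at that p in striatum (0.27, SE 0.11), and none of the 8 in cerebellum. Of the 8, 1 was lower and 1 higher in striatum and none in cerebellum without the libraries that stood apart. Among 12 tested relatives of the 10 genes, the calcium channel Itpr1 was lower (−0.26, SE 0.09) and Enpp2 higher (0.68, SE 0.28) at that p in cortex, and none in the other regions.

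Markers of other cells were taken as lists as well. At an unadjusted p under 0.05, Gfap was higher in cerebellum (0.23, SE 0.11) and cortex (0.23, SE 0.09), Slc4a4 lower in cortex (−0.15, SE 0.06) and Gja1 higher in striatum (0.22, SE 0.07) among 9 astrocyte markers. Of 10 pericyte and smooth muscle markers, Kcnj8 was lower in cerebellum (−0.21, SE 0.08) and Vtn, Higd1b and Anpep were lower in striatum (−0.21, −0.24 and −0.32). Of 6 microglia markers, P2ry12 was higher (0.27, SE 0.09) and Tmem119 lower (−0.16, SE 0.06) in striatum, and none of 7 fibroblast markers had such a p in any region with all libraries. Among neuron markers, Neurod6 of the 4 cortical ones was lower at that p in cerebellum (−0.23, SE 0.07), and none of the 5 striatal or 5 cerebellar ones had such a p. No astrocyte or pericyte marker had such a p in cerebellum without the libraries that stood apart. In striatum 1 astrocyte marker was then higher, 3 pericyte markers, 2 striatal neuron markers and 1 of 7 fibroblast markers were lower, and no microglia marker had such a p. All 7 fibroblast markers were then negative in striatum, with a median of −0.21. No adjusted p of these markers passed the threshold, and their part in the values of the 10 genes was not tested.

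Whether the genotype difference itself varied between regions was tested as an interaction over all 54 libraries. None of the 9 genes passed an adjusted p under 0.05 (0.00% of all genes did in each of the 3 contrasts), and none had an unadjusted p under 0.05, where 1.11% of all genes had one between cortex and cerebellum, 2.68% between striatum and cerebellum and 4.22% between striatum and cortex. The difference of Bmp4 in striatum minus that in cortex was −0.32 (SE 0.21, unadjusted p = 0.134) on the log2 scale. Without litter 2 it was −0.59 (SE 0.26, unadjusted p = 0.0302), and without the libraries that stood apart −0.21 (SE 0.20, unadjusted p = 0.296).

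Regional levels had no part in choosing the set, so all 10 genes were tested between the regions of WT mice. In cortex 6 of the 10 were higher than in cerebellum and 1 was lower at an adjusted p under 0.05, where 27.6% of all genes were higher and 28.2% lower. In striatum 6 were higher and 1 lower than in cerebellum, against 32.6% and 32.9% of all genes. Between striatum and cortex 2 were higher in striatum and 2 lower, against 22.7% and 24.4%, and with the mouse as a block 3 were higher and 2 lower. The shares of all genes are those of the fit without the block and with all libraries.

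Gpr17 and both precursor genes were higher in the forebrain regions than in cerebellum. The log2 difference between WT cortex and WT cerebellum was 1.24 for Gpr17 (SE 0.23, adjusted p = 6.47e-06), 1.36 for Pdgfra (SE 0.17, adjusted p = 1.81e-09) and 1.07 for Cspg4 (SE 0.19, adjusted p = 3.04e-06). Between striatum and cerebellum it was 1.54 for Gpr17 (SE 0.23, adjusted p = 8.25e-08), 0.93 for Pdgfra (SE 0.17, adjusted p = 5.32e-06) and 1.41 for Cspg4 (SE 0.19, adjusted p = 8.02e-09). Pdgfra was the one of the 3 that differed between striatum and cortex, by −0.43 (SE 0.17, adjusted p = 0.0311), with a WT median of 63.3 CPM against 46.8 CPM in striatum and 21.7 CPM in cerebellum. This call did not hold with no filter on low counts (adjusted p = 0.0765) or without the 2 repeated libraries (adjusted p = 0.110). Gpr17 had WT medians of 79.8, 64.9 and 24.8 CPM in striatum, cortex and cerebellum, and the difference between striatum and cortex did not pass the threshold (0.30, SE 0.22, adjusted p = 0.284).

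The WT medians of Bmp4, Neu4, Cspg4 and Olig1 had the same order as those of Gpr17, highest in striatum and lowest in cerebellum. Of these genes only Olig1 passed the threshold between striatum and cortex with all libraries. Bmp4 was higher than in cerebellum by 0.65 (SE 0.16) in cortex and 0.89 (SE 0.16) in striatum, and Neu4 by 0.48 (SE 0.18) and 0.85 (SE 0.18), each with an adjusted p under 0.05. Olig1 was higher in striatum than in cerebellum by 1.24 (SE 0.26, adjusted p = 3.86e-05) and than in cortex by 0.95 (SE 0.25, adjusted p = 0.00209). Bcas1 was higher in striatum than in cortex by 1.05 (SE 0.30, adjusted p = 0.00339), as were 16 of the 18 mature myelin genes, among them Mbp (1.30, SE 0.30), which encodes a structural protein of compact myelin.

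Tns3 was the exception, lower in cortex than in cerebellum by −0.60 on the log2 scale (SE 0.10, adjusted p = 5.70e-07) and in striatum by −0.56 (SE 0.10, adjusted p = 1.91e-06). Its WT levels ran from 99.3 to 167.4 CPM in cerebellum and from 70.2 to 94.2 CPM in cortex, with no overlap. Across mice in cerebellum, centred on the genotype means, its r with Gpr17 was −0.11. It read 129.8 CPM in WT mouse M754 and 108.1 CPM in Mbd5+/GT mouse M755, the cerebellum libraries with the most myelin RNA. The part of other cell types in its cerebellar level was not tested. Itpr2 was higher in cortex than in cerebellum (0.39, SE 0.13, adjusted p = 0.0116) and than in striatum, the striatum minus cortex difference being −0.34 (SE 0.13, adjusted p = 0.0334). The latter call was lost with DESeq2 size factors (adjusted p = 0.0536), with no filter (adjusted p = 0.102) and without the repeated libraries (adjusted p = 0.0950). Enpp6 did not pass the threshold in any of the 3 contrasts, but with the mouse as a block, which pairs the regions, it was higher in striatum than in cortex by 0.70 (SE 0.29, adjusted p = 0.0416).

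WT mouse M754 gave 1 of the 8 WT cerebellum libraries and mice M754 and M761 gave 2 of the 8 WT striatum libraries that stood apart, and several regional calls moved when all 7 such libraries were left out. The differences of Gpr17 from cerebellum were then 1.56 in cortex (SE 0.14) and 1.84 in striatum (SE 0.14). Olig1 was then higher in cortex than in cerebellum (0.62, SE 0.16, adjusted p = 0.000701), and Bcas1 (1.11, SE 0.19) and Enpp6 (0.53, SE 0.20, adjusted p = 0.0175) in striatum than in cerebellum. Between striatum and cortex 5 of the 10 were then higher in striatum, with Enpp6 (0.89, SE 0.19), Neu4 (0.41, SE 0.11) and Cspg4 (0.34, SE 0.14) added to Bcas1 and Olig1. The share of all genes called without these libraries was not counted, so the rise cannot be read as particular to these genes.

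**Figure D5:**
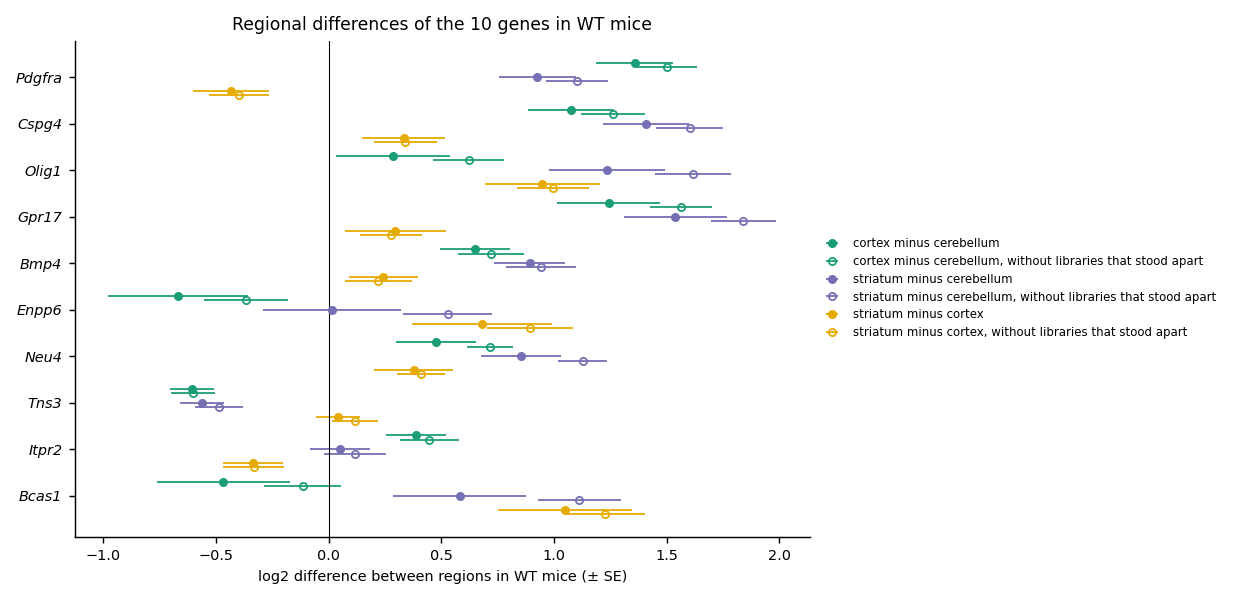
Log2 difference between regions in WT mice (± SE) for each of the 10 genes in the 3 contrasts, with all libraries as filled circles and without the libraries that stood apart as open circles. Gpr17, Pdgfra and Cspg4 lie near or above 1 against cerebellum, and Tns3 lies below −0.5 in both contrasts with cerebellum.

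Compared per kilobase of exon, the genes with the highest WT medians were the same in the 3 regions, and those with the lowest differed. Bcas1 had the highest WT median, 91.1 CPM per kb in striatum, 41.5 in cortex and 41.8 in cerebellum, and Olig1 followed with 67.5, 33.2 and 22.6 CPM per kb. Gpr17 stood at 4.77 CPM per kb in cerebellum, 12.5 in cortex and 15.4 in striatum. Cspg4 was lowest in cerebellum at 0.618 CPM per kb, and Enpp6 lowest in cortex at 1.05 CPM per kb. Itpr2 was lowest in striatum at 1.43 CPM per kb.

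Lists of the same lineage were counted between the regions of WT mice in the same way, against the same shares of all genes. Of 19 other precursor genes, 8 were higher and 3 lower in cortex than in cerebellum, and 11 higher and 4 lower in striatum than in cerebellum, at an adjusted p under 0.05. The counts were 11 and 4 in both contrasts without the libraries that stood apart, a setting in which the share of all genes was not counted. The abundant proteoglycan gene Cspg5 was higher in cortex by 1.60 (SE 0.11) and in striatum by 1.81 (SE 0.11), and Ptprz1 was lower in striatum by −1.34 (SE 0.19). Of 16 other newly formed oligodendrocyte genes, 2 were higher and 8 lower in cortex than in cerebellum, with the kinase Fyn lower by −0.25 (SE 0.07), and without those libraries 4 were higher and 8 lower. Mature myelin genes were lower in cortex than in cerebellum in 10 of 18 cases and higher in none (median −0.67), and without those libraries 9 were lower and 1 higher (median −0.36).

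Gpr17 and its lineage genes were then followed across mice within a region, as log2 CPM centred on the genotype means, so that the genotype difference did not enter. Of 27 relations of Gpr17 with the other 9 genes, 10 had a Benjamini-Hochberg adjusted permutation p under 0.05 by Pearson's r and 1 by Spearman's rho. Among these 10, 7 were in cerebellum, where the libraries of mice M754 and M755 were high for Gpr17 and for the other gene. The share of all genes related to Gpr17 at that threshold was not counted, so these counts cannot be read as particular to the lineage. For Cspg4 in cerebellum r was 0.85 (permutation p = 0.00188, adjusted 0.00990) and rho 0.61 (permutation p = 0.0112, adjusted 0.0667), and without the 2 mice farthest from the median of Gpr17 r was 0.33. With centring on genotype alone the relation therefore rests on those libraries, as did those with Pdgfra (r = 0.76, then 0.09), Enpp6 (0.87, then 0.33), Bmp4 (0.68, then 0.37) and Bcas1 (0.90, then 0.49) in cerebellum. For these 4 genes the adjusted p of r ran from 0.00396 to 0.0163, and rho from 0.41 to 0.55 with adjusted p from 0.104 to 0.187. Centred on litter as well as genotype, the relations were stronger in ranks. Cspg4 in cerebellum then had rho = 0.80 (permutation p = 0.00012, adjusted 0.000864) and r = 0.78 without the 2 farthest mice, and that r was 0.76 for Enpp6, 0.79 for Bcas1, 0.58 for Pdgfra and 0.36 for Bmp4. The litter means were taken with M754 and M755, both of litter 3, still included. The permutations did not keep mice within litters. These values are therefore not free of those libraries and cannot show a relation without them.

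Neu4 was the gene whose relation with Gpr17 in cerebellum held best. Over 18 mice r was 0.93 (permutation p = 0.00014, adjusted 0.00365) and rho 0.78 (permutation p = 0.00021, adjusted 0.00567), and r was 0.70 without the 2 farthest mice. Olig1 in cerebellum had r = 0.91 (permutation p = 0.00027, adjusted 0.00365) and rho = 0.63 (permutation p = 0.00914, adjusted 0.0667), with r = 0.60 without the farthest mice.

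In cortex Gpr17 varied with Itpr2 (r = 0.65, permutation p = 0.00482, adjusted 0.0163; rho = 0.60, permutation p = 0.0124, adjusted 0.0667) and with Tns3 (r = 0.55, permutation p = 0.0141, adjusted 0.0421; rho = 0.61, permutation p = 0.00504, adjusted 0.0667). Without the 2 farthest mice these r were 0.60 and 0.58. In striatum the one relation past the threshold was with Cspg4 (r = 0.55, permutation p = 0.0162, adjusted 0.0438; rho = 0.42, permutation p = 0.0934, adjusted 0.180), and r was 0.42 without the 2 farthest mice. It did not pass when litter was centred too (adjusted 0.143) or without the repeated libraries (adjusted 0.124). Centred on litter as well, Pdgfra (r = 0.68, adjusted 0.0117), Cspg4 (r = 0.56, adjusted 0.0340) and, in the negative direction, Bcas1 (r = −0.56, adjusted 0.0464) also passed in cortex. Without all libraries that stood apart, 4 of the 27 relations passed by Pearson's r, Itpr2 in cortex and Cspg4 (0.77), Enpp6 (0.76) and Tns3 (0.76) in striatum, and none by Spearman's rho. On residuals after the mean of the myelin genes, none of the 27 passed.

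The 10 genes whose pattern across mice was most like that of Gpr17, by the mean Pearson r over the 3 regions (18 libraries each) among 17220 genes, were Ncan (0.81), Lrp4 (0.80), Chst3 (0.80), Bace1 (0.79), Cx3cr1 (0.76), Dock2 (0.76), Kank1 (0.75), Caskin2 (0.74), Lcp1 (0.74) and Creb3l2 (0.73). Ncan encodes the proteoglycan neurocan, Chst3 a chondroitin sulfotransferase and Cx3cr1 a chemokine receptor of microglia. Of the 9 lineage genes, Cspg4 ranked highest at 49 (mean r 0.65), followed by Neu4 at 285, Itpr2 at 511 and Olig1 at 521. Bcas1 ranked lowest at 3009 (mean r 0.25). The median of the mean r was 0.46 for the 9 lineage genes, against −0.01 over all genes. It was 0.47 for the cell cycle genes and 0.40 for the microglia markers, so a median of this size was not particular to the lineage. For the other precursor genes it was 0.29, for the mature myelin genes 0.28 and for the cerebellar neuron markers −0.41. Without the libraries that stood apart the mean r of the 10 genes ran from 0.56 (Lcp1) to 0.72 (Chst3), and Neu4 ranked 39, Cspg4 47, Olig1 193, Tns3 402, Enpp6 711, Itpr2 2173, Bcas1 3147, Bmp4 3226 and Pdgfra 3542. The libraries of a region share depth and dissection, which enter every such r.

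Across the regions of the same mouse, Gpr17 deviated from its genotype means with r = 0.55 between cerebellum and cortex (permutation p = 0.0226; rho = 0.57, permutation p = 0.0212), r = 0.58 between cortex and striatum (permutation p = 0.0157; rho = 0.57, permutation p = 0.0173) and r = 0.43 between cerebellum and striatum (permutation p = 0.0845; rho = 0.40, permutation p = 0.112). These relations were computed after the values had been seen. None of the 30 relations of the 10 genes between regions had an adjusted p under 0.05, the smallest for Gpr17 being 0.339 by r and 0.318 by rho. Without the 2 mice farthest from the median, the r of Gpr17 were 0.46, 0.58 and 0.37, and without the libraries that stood apart 0.46, 0.45 and 0.09. Centred on litter as well as genotype, they were 0.35, 0.26 and 0.15.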

How the data were processed

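RNA-seq of cerebellum, cortex and striatum of 18 mice was used, 54 libraries in 6 groups by genotype and region from the sample labels, with 1 library per mouse and region. The deposited values are raw whole-number counts per Ensembl gene. Per the labels and the study's methods, the authors used STAR (2.4.2 in the submitters' processing notes, with FastQC 0.10.1) both for alignment to GRCm38 and for counting. The strand column kept is not given in the sources used here. The 92 ERCC spike-ins (0.0207% to 0.728% of a library) did not enter library sizes or tests. Symbols matched 46488 of 47069 identifiers, and coordinates came from a GENCODE annotation of the same build.

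A gene was tested where 8 or more libraries had over 4 counts. Each region was fitted with edgeR 4.0.16 (TMM, robust quasi-likelihood test, Benjamini-Hochberg adjustment) with genotype and 2, 4 and 4 surrogate variables (sva 3.50.0) in cerebellum, cortex and striatum. An SE is the log2 fold change divided by the square root of F. Regions and interactions were fitted over all 54 libraries in 6 groups without surrogate variables. Correlations had 100000 permutations within genotype and log2 CPM with a prior count of 2. CPM per kb used the union of exons. Fits were tested on simulated data. R 4.3.3 and DESeq2 1.42.0 were used for alternatives.

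The 10 genes, the 13 other lists (144 of 145 entries were found) and the tests were chosen with earlier results of these data known. All 10 genes are named in each comparison. Of other lists, genes with an unadjusted p under 0.05 are named, at most 4 per list and region by smallest p, between regions examples are taken from the 4 most abundant of a list, and the 10 genes most like Gpr17 are named by mean Pearson r. The mouse number pairs the regions because the 3 libraries of a mouse come from 1 animal. The deviations of Gpr17 correlated between regions with r from 0.43 to 0.58, none with an adjusted permutation p under 0.05. With litter centred as well, these r ran from 0.15 to 0.35. Libraries stood apart when cerebellar neuron markers summed to under 0.5 of the cerebellar median, or striatal markers to less than in the highest cortex library, a rule set after the values were seen. Alternatives were DESeq2, its size factors, no filter, other surrogate variables, litter and sex, a myelin covariate, the mouse as a block, and leaving out litter 2, the 2 repeated libraries or the libraries that stood apart.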

Additional observations from a re-analysis of the deposited data

Results flagged for a closer look

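In each group of 8 or 10 libraries, the highest and the lowest level of each gene were compared with their nearest neighbour by Dixon's criterion at 95%. Of 60 groups, 17 held a library far from the rest, and most of these were the cerebellum libraries of mice M754 and M755. The groups share libraries, and the genes vary together. The 5% of groups that chance gives for independent groups is therefore no expectation here. In cerebellum, WT mouse M754 was far above the other WT libraries for Gpr17 (69.5 CPM, next 26.4), Cspg4 (14.2 CPM), Enpp6 (23.9 CPM), Neu4 (17.5 CPM), Bcas1 (542.6 CPM) and Olig1 (149.6 CPM). Mbd5+/GT mouse M755 was far above the other Mbd5+/GT cerebellum libraries for Gpr17 (69.0 CPM, next 24.98), Pdgfra (49.3 CPM), Cspg4 (18.7 CPM), Bmp4 (2.88 CPM), Enpp6 (40.3 CPM), Neu4 (17.99 CPM), Bcas1 (681.8 CPM) and Olig1 (181.7 CPM). Cerebellar neuron markers summed to 1081 CPM and 100.8 CPM in these libraries, and the part of the tissue taken in these values was not tested. Mouse M755 was also far above the other Mbd5+/GT cortex libraries for Enpp6 (11.6 CPM, next 7.70). Olig1 was far above the rest in the cortex of WT mouse M757 (106.3 CPM, next 76.8) and in the striatum of WT mouse M752 (207.2 CPM, next 156).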

How the results depend on the processing

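Of the other 9 genes, 0 had an adjusted p under 0.05 between genotypes in any region under any alternative. The count lower at an unadjusted p under 0.05 in cerebellum (2) was 0 without surrogate variables, with 1 fewer, with litter and sex in their place and without the libraries that stood apart. In cortex (1) it was 2 with no filter, with 1 surrogate variable fewer and with the myelin covariate, Olig1 being added to Neu4. In striatum (1) it was 0 without the libraries that stood apart and without the repeated libraries. Without litter 2, 1 gene was higher in striatum, Pdgfra, whose log2 fold change turned to 0.21, and Bmp4 passed an unadjusted p under 0.05 in 1 interaction. For Neu4 in cortex the unadjusted p ran from 0.00508 (DESeq2) to 0.0506 (without litter 2). The log2 fold change of Gpr17 was −0.13 in cortex with no filter and −0.07 in striatum without litter 2. With the mouse as a replicate block, which pairs the regions, the counts between WT regions were 6 higher and 1 lower, 6 and 1, and 3 and 2, and it changed no other call than that of Enpp6 between striatum and cortex (0.70, adjusted p = 0.0416). Between striatum and cortex, 5 genes were higher without the libraries that stood apart, and the count lower was 1 with DESeq2 size factors and 0 with no filter or without the repeated libraries. Shares of all genes were not counted under the alternatives. The relations of Gpr17 past the threshold by Pearson's r (10) were 4 without the libraries that stood apart and 0 on residuals after the myelin mean. By Spearman's rho (1) they were 0 in both of these settings and 12 centred on litter as well. The litter means of that last setting included mice M754 and M755, and its permutations did not keep mice within litters. The 7 libraries that stood apart were left out by a rule chosen after seeing the data. Counting error limits Bmp4 most, since it had the fewest counts. The cause of these changes was not tested.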
